A study of Mus musculus with 16 samples.

Results

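Homing receptors and adhesion molecules decide where a T cell goes and what it holds on to, and 9 genes of this kind were followed through activation of a mouse Th2 cell line with and without an Akt inhibitor. They are the chemokine receptor genes Ccr7 and Cxcr4, the sphingosine 1-phosphate receptor gene S1pr1, the integrin subunit genes Itgal, Itgb2 and Itgb7, the selectin ligand gene Selplg, the hyaluronan receptor gene Cd44 and the integrin ligand gene Icam1. They were chosen by gene symbol, and 8 of the 9 had a row among the 18138 genes of the arrays (Itgal was not analysed here). Of those 8, the 6 genes Ccr7, Cxcr4, Itgb7, Selplg, Cd44 and Icam1 were above background on at least 2 of 16 arrays and entered the tests with 7395 genes in all. A gene was above background on an array when its detection p, the share of 798 negative control probes at or above its intensity, was under 0.01.

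A circulating T cell rolls on vessel walls through selectin ligands, is triggered by chemokines to activate its integrins, and arrests on endothelial ligands such as ICAM-1, while CCR7 and S1PR1 guide its entry into and exit from lymphoid tissue. PI3K and Akt signalling restrains FOXO transcription factors, which are known activators of KLF2 and of several homing receptor genes in T cells. ICAM-1 is a well known NF-κB target and also lies on activated T cells, where it takes part in contacts between cells through the integrin LFA-1, the product of Itgal and Itgb2.

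The cells were D10, a line derived from the Th2 clone D10.G41 and chosen for fast growth, maintained in medium with recombinant IL-2, so that every group shares 1 clonal background and that cytokine. Control cells, which did not receive the inhibitor, and cells pre-incubated for 1 h with 10 µM Akti1/2, an allosteric inhibitor of Akt1 and Akt2, were stimulated through CD3 and CD28 with biotinylated antibodies and streptavidin for 0, 2, 6 or 12 h (the methods call the controls untreated, while another passage names a solvent). Each of the 8 groups had 2 Illumina MouseRefSeq8 arrays, with 1 array of each group on each of 2 chips, and p-values measure only the spread between these arrays, which may be technical since separate cultures are not stated. Levels are deposited intensities. Differences, with 95% intervals, are on the log2 scale after background correction against the negative controls and quantile normalisation between arrays (neqc).

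The arrays gave 6288 to 6907 genes above background, and the replicate arrays of a group correlated at 0.9855 to 0.994 over all genes. The mean negative control was 111.06 and 112.93 on the replicate 1 arrays of Akti1/2-treated cells at 2 h and 6 h, and 125.78 to 138.58 on the other 14. This bears most on dim genes such as Ccr7 and Cd44. Of 10 T cell markers, 8 were above background on every array, with Cd4 above on 13 arrays and Thy1 on none, and 7 of 8 Th2 markers were above on all (Maf on none). None of 9 measured myeloid, 5 B cell or 4 endothelial markers was above background on all 16 arrays, although Cd68 was on 15, Pecam1 on 7 and Ms4a1 on 1. Of 6 markers of CD8 T or NK cells, Prf1, the perforin gene, was above background on all 16 arrays and the other 5 on none (summed intensity 744.2 to 936.8). The Th2 markers include the cytokine genes Il4, Il5, Il13 and Il10. Their summed intensity at 0 h was 7425.7 to 9329.6 in control and 7092.9 to 8763.1 in Akti1/2-treated cells. At 6 h it was 27304.9 to 27926.7 in control and 12407.2 to 15705.9 in Akti1/2-treated cells, and its part in the results on homing genes was not tested.

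Activation changed the level of most of the 6 tested genes, and Akti1/2 left some of them higher and others lower. Cxcr4 and Ccr7 were higher with the inhibitor, Icam1 was induced less, and the fall of Selplg and Itgb7 was smaller in size with it, although these last differences depended on single arrays. At 0 h, no call was made among the 6 genes for Akti1/2 against control cells in limma's test with Benjamini-Hochberg adjustment, against 0.0541% of all tested genes (4 genes, with 381 at an unadjusted p under 0.05), and none of the 6 had an unadjusted p under 0.05. The plot of intensities by time shows the levels on every array.

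**Figure D1:**
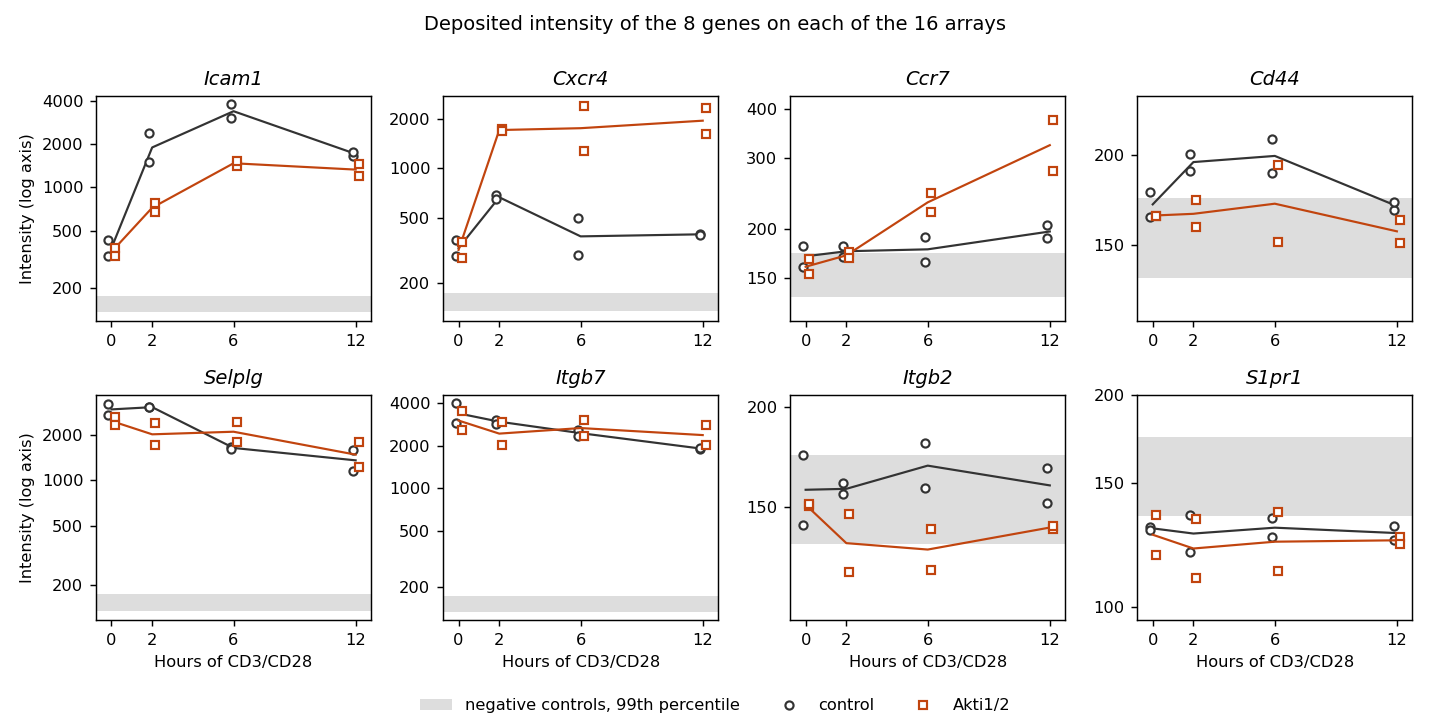
Intensity of the 8 measured genes (log axis) against hours of CD3/CD28 stimulation, with 1 point per array, lines through the geometric means of 2 arrays, and a grey band for the range over the 16 arrays of the 99th percentile of the negative controls. Icam1 rose furthest in control cells, Cxcr4 ran from 1274.4 to 2401.3 from 2 h on in Akti1/2-treated cells, and Itgb2 and S1pr1 lay in the band or below it, except for Itgb2 on 2 control arrays at 174.3 and 180.2.

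The promoters of the most changed genes, Cxcr4 and Icam1, which moved in opposite directions under Akti1/2, are shown as a description. The part of these letters in the responses was not tested. RefSeq (GRCm38.p6) had promoter entries for 4 of the 9 genes, and the 250 bases before the start, 5′ to 3′, cover chr1:128592300-128592549 on the minus strand for Cxcr4 and chr9:21015690-21015939 on the plus strand for Icam1. Capitals mark matches on either strand to the letters TGTTTAC (a forkhead core), TGANTCA (AP-1), GGAAAA (NFAT), GGAANTTCC or the NF-κB consensus.
Cxcr4: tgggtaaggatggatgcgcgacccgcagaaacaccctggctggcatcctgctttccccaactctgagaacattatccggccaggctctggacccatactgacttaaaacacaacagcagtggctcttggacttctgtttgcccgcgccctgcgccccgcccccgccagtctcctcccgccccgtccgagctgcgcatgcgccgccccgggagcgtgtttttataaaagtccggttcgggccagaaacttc
Icam1: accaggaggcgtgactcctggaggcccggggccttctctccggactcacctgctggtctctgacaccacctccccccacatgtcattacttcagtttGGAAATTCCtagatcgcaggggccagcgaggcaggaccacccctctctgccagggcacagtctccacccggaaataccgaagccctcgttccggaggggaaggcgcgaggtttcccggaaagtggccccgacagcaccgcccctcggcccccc
The Icam1 window held GGAAATTCC, a match to GGAANTTCC, from 153 to 145 bases before the start, and 0.813% of 32851 promoter windows of this length hold these letters. The Cxcr4 and Itgb7 windows held none of the 5 motifs, and the Cd44 window held GGAAAA (20.4% of windows). TGTTTAC was in 3.17% and TGANTCA in 6.75% of the windows, and the NF-κB consensus, none of whose matches lay in these 4, in 5.93%. A match of letters is no evidence of binding, and the lack of one speaks only of this window and of the letters searched. The lack of a match to the NF-κB consensus thus does not show that the Icam1 window, with its GGAAATTCC, lacks a site for NF-κB.

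Cxcr4, the receptor of CXCL12 that holds T cells in bone marrow and lymphoid niches, showed the largest response to the inhibitor among the tested genes of the set. Its row carries the symbol alone, without a gene identifier. In control cells its intensity on the 2 arrays of each group was 364.6 and 292.1 at 0 h, 682.2 and 647.7 at 2 h, 496.8 and 297.5 at 6 h, then 397.5 and 394.3 at 12 h. With Akti1/2 it was 357.0 and 283.2 at 0 h, 1733.2 and 1675.9 at 2 h, 1274.4 and 2401.3 at 6 h, then 2332.8 and 1618.9 at 12 h. Every stimulated Akti1/2-treated array was thus above every control array, and the 0 h groups overlapped in intensity. In bulk RNA, more cells with a transcript and more of it per cell cannot be told apart.

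In control cells Cxcr4 rose at 2 h by 1.45 on the log2 scale (2.73-fold, SE 0.26, adjusted p = 0.0041 in limma with Benjamini-Hochberg adjustment) and differed from 0 h by 0.43 at 6 h (adjusted p = 0.255) and by 0.43 at 12 h (adjusted p = 0.243). Without the replicate 2 control array at 6 h the difference at 6 h was 0.86 and was called (adjusted p = 0.0292), and with only the compared groups in the fit that at 12 h was called (adjusted p = 0.0379). With Akti1/2 it rose 9.67-fold at 2 h (log2 3.27), 7.74-fold at 6 h and 8.51-fold at 12 h, with adjusted p in limma from 1.72e-06 to 4.78e-06. Against control cells at the same time it was 3.88-fold higher at 2 h, 6.31-fold at 6 h and 6.92-fold at 12 h. The size at 6 h varied between chips, with log2 differences of 1.88 on the first and 3.43 on the second.

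The difference between the treated and the control response of Cxcr4, the interaction, was 1.82 at 2 h (95% interval 1.03 to 2.62, adjusted p = 0.0131 in limma), 2.52 at 6 h (1.73 to 3.32, adjusted p = 0.000781) and 2.66 at 12 h (1.86 to 3.45, adjusted p = 0.000222). Both chips gave a positive value at each time. The call at 2 h was lost without replicate 1 of the 0 h control arrays (1.79, adjusted p = 0.0516). In control cells Cxcr4 fell by 1.02 from 2 h to 6 h (adjusted p = 0.0199), and this call was lost without the replicate 2 control array at 6 h (-0.59, adjusted p = 0.192), and without either control array at 2 h (adjusted p = 0.051 and 0.125).

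Ccr7, which directs T cells to lymph nodes (Entrez gene 12775), was dim and rose with the inhibitor. Its intensity in control cells was 181.0 and 160.5 at 0 h, 169.8 and 181.3 at 2 h, 190.9 and 164.9 at 6 h, then 189.6 and 204.0 at 12 h. In Akti1/2-treated cells it was 167.3 and 153.9 at 0 h, 174.3 and 168.5 at 2 h, 220.2 and 245.9 at 6 h, then 374.8 and 279.6 at 12 h. The treated arrays were above the control arrays at 6 h and 12 h, overlapped them at 0 h and 2 h in intensity, and 1 of 2 arrays was not above background in each 0 h group.

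With Akti1/2, Ccr7 rose by 0.56 at 2 h (adjusted p = 0.0201 in limma), by 1.24 at 6 h and by 1.92 at 12 h (3.78-fold, SE 0.17, adjusted p = 2.61e-06). Control cells rose by 0.56 at 12 h (1.47-fold, adjusted p = 0.0267 in limma), a call lost when any array at 0 h or 12 h of control cells was left out (adjusted p = 0.0741 to 0.131), without background correction (0.20, adjusted p = 0.0927) and with no filter on dim genes (adjusted p = 0.0512). Against control cells, Ccr7 was 2.03-fold higher at 6 h and 2.58-fold higher at 12 h, while the difference of 0.43 at 2 h had an adjusted p of 0.0749 in limma (0.59 and called with arrays scaled to the same mean, adjusted p = 0.0208). The interaction was 1.02 at 6 h (0.50 to 1.54, adjusted p = 0.0108) and 1.36 at 12 h (0.84 to 1.88, adjusted p = 0.00106).

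Ccr7 also rose between the later times with the inhibitor, by 0.68 from 2 h to 6 h (adjusted p = 0.0108 in limma) and by 0.68 from 6 h to 12 h (adjusted p = 0.0167). Without background correction the interaction of Ccr7 was 0.43 at 6 h and 0.70 at 12 h, smaller in size and still past the threshold. The step from 2 h to 6 h was lost without replicate 2 at 2 h (0.50, adjusted p = 0.102) or replicate 1 at 6 h (0.58, adjusted p = 0.0802), and that from 6 h to 12 h without replicate 2 at 6 h (0.59, adjusted p = 0.101) or replicate 1 at 12 h (0.53, adjusted p = 0.133). The rise at 2 h with the inhibitor was lost without the replicate 1 array of that group (0.38, adjusted p = 0.15) and without the replicate 2 array at 0 h (0.48, adjusted p = 0.119), and fell to 0.20 without background correction (adjusted p = 0.0682).

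S1pr1, the receptor that lets T cells leave lymph nodes (Entrez gene 13609), was above background on 0 of 16 arrays and was not tested. Its intensity ran from 110.0 to 136.3 with a median of 127.25, and the group means lay between 121.6 with Akti1/2 at 2 h and 129.65 in control cells at 6 h. A level of S1pr1 below this background cannot be given from these arrays.

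Itgb7 pairs with integrin alpha 4 or alpha E and serves homing to the gut (Entrez gene 16421) and its level fell with stimulation. Its intensity in control cells was 3962.6 and 2862.0 at 0 h, 3031.8 and 2857.9 at 2 h, 2552.2 and 2340.0 at 6 h, then 1879.9 and 1911.7 at 12 h. The inhibitor-treated arrays gave 3477.9 and 2585.5 at 0 h, 2907.0 and 2024.1 at 2 h, 2340.5 and 3010.7 at 6 h, then 2793.4 and 2008.3 at 12 h. The 12 h control arrays lay below all other arrays, and the treated groups overlapped one another in intensity. On the normalised log2 scale the treated arrays at 12 h (11.23 and 11.05) lay below those at 0 h (11.63 and 11.52).

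Itgb7 fell by 0.56 at 6 h (adjusted p = 0.00648 in limma) and by 0.97 at 12 h (1.95-fold, SE 0.13, adjusted p = 0.000164) in control cells, and by 0.43 at 12 h with Akti1/2 (1.35-fold, adjusted p = 0.0158). At 12 h it was 1.38-fold higher with the inhibitor (log2 0.47, adjusted p = 0.00917), and the interaction was 0.54 (0.14 to 0.93, adjusted p = 0.0385). The fall at 6 h in control cells was lost without replicate 1 at 0 h (-0.50, adjusted p = 0.0568), that at 12 h with Akti1/2 without replicate 1 at 0 h (-0.38, adjusted p = 0.095) or replicate 2 at 12 h (-0.34, adjusted p = 0.115), and the difference from control cells at 12 h without control replicate 2 (0.37, adjusted p = 0.086) or treated replicate 1 (0.38, adjusted p = 0.0804). The interaction was lost under 11 of 24 alternatives, among them leaving out 1 of 8 single arrays, with adjusted p from 0.0502 to 0.139. Both alpha partners, Itga4 and Itgae, were above background on no array (106.5 to 144.5 and 122.5 to 156.7), and neither was Itgb1, the beta subunit of VLA integrins (112.4 to 160.8).

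Itgb2, the beta subunit of LFA-1 (Entrez gene 16414), was above background on 1 of 16 arrays, a 6 h control array, and was not tested. Its intensity ran from 124.4 to 180.2, with group means of 169.3 in control and 132.9 in Akti1/2-treated cells at 6 h. Leukocytes are known for LFA-1, and the row for Itgb2 did not stand out from the negative controls here.

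Selplg encodes PSGL-1, the selectin ligand on which T cells roll (Entrez gene 20345), and it too fell with stimulation. Its intensity in control cells was 3219.6 and 2719.1 at 0 h, 3076.7 and 3048.4 at 2 h, 1675.2 and 1606.1 at 6 h, then 1152.6 and 1596.9 at 12 h. The inhibitor-treated arrays gave 2615.4 and 2347.5 at 0 h, 2397.0 and 1703.4 at 2 h, 1798.3 and 2458.3 at 6 h, then 1789.6 and 1224.8 at 12 h. The control arrays at 6 h and 12 h lay below all control arrays of the earlier times. In intensity the treated arrays at 6 h lay just above those at 12 h. On the normalised log2 scale they were at 10.89 and 11.10 against 10.56 and 10.30.

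In control cells Selplg fell by 0.93 at 6 h (1.91-fold, adjusted p = 0.000608 in limma) and by 1.27 at 12 h (2.42-fold, SE 0.15, adjusted p = 5.89e-05). The fall came between 2 h and 6 h (-0.95, adjusted p = 0.0012), and the 2 h level differed from 0 h by 0.02. With Akti1/2 it was lower by 0.27 at 6 h (adjusted p = 0.195) and fell by 0.83 at 12 h (1.78-fold, adjusted p = 0.000667 in limma), with 0.56 of that between 6 h and 12 h (adjusted p = 0.0211). Selplg was 1.42-fold higher with the inhibitor at 6 h (adjusted p = 0.0173), and the interaction was 0.67 (0.22 to 1.12, adjusted p = 0.0408), lost under 11 of 24 alternatives (adjusted p from 0.0503 to 0.131). The difference from control cells at 6 h was lost without control replicate 1 (0.44, adjusted p = 0.0989) or treated replicate 2 (0.40, adjusted p = 0.107), and the later fall with Akti1/2 without replicate 2 at 6 h (-0.46, adjusted p = 0.126) or at 12 h (-0.44, adjusted p = 0.145).

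Cd44, a hyaluronan receptor and marker of activated T cells (Entrez gene 12505), was represented by a row for transcript variant 2 close to background. Its intensity in control cells was 177.6 and 164.2 at 0 h, 190.4 and 201.2 at 2 h, 210.9 and 189.0 at 6 h, then 167.6 and 172.1 at 12 h. In Akti1/2-treated cells it was 164.7 on both arrays at 0 h, 158.5 and 173.1 at 2 h, 151.2 and 193.7 at 6 h, then 162.5 and 150.8 at 12 h. The control arrays at 2 h and 6 h were the highest with 1 exception, the treated replicate 2 array at 6 h, and no array at 12 h was above background in either condition.

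Cd44 rose in control cells by 0.58 at 2 h (SE 0.14, adjusted p = 0.0187 in limma) and by 0.69 at 6 h (1.61-fold, adjusted p = 0.00266). It fell from 6 h to 12 h in control cells (adjusted p = 0.00341 in limma) and with Akti1/2 (adjusted p = 0.0102). With Akti1/2 the 12 h level was also below 0 h (adjusted p = 0.0168). The log2 intervals of these falls were -1.06 to -0.47, -0.90 to -0.31 and -0.75 to -0.16. With the 12 h groups counted at no less than the lowest level above background, the falls were 1.59-fold, 1.29-fold and 1.16-fold. These folds leave out the error of the fit and are not minimum values. At 6 h Cd44 was 1.34-fold lower with the inhibitor (adjusted p = 0.0286). The interaction of -0.54 at 6 h had an adjusted p of 0.0682. The rise at 2 h was lost without control replicate 1 at 0 h (0.49, adjusted p = 0.148), replicate 2 at 0 h (0.67, adjusted p = 0.0535) or replicate 2 at 2 h (0.43, adjusted p = 0.167), without background correction (0.21, adjusted p = 0.0685) and with arrays scaled to the same mean (0.48, adjusted p = 0.0627). The fall from 0 h to 12 h with Akti1/2 was lost without replicate 2 at 0 h or either array at 12 h (adjusted p = 0.0569 to 0.142), and that from 6 h without replicate 2 at 6 h or replicate 1 at 12 h (adjusted p = 0.0784 and 0.0615). Without background correction these falls were -0.14 and -0.19 on the log2 scale and neither was called (adjusted p = 0.132 and 0.0737). The call at 6 h against control cells was lost without either control array or treated replicate 1 (adjusted p = 0.0578 to 0.167), without background correction (-0.16, adjusted p = 0.0869) and with arrays scaled to the same mean (-0.25, adjusted p = 0.24).

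Icam1, the ligand of LFA-1 and of Mac-1 (Entrez gene 15894), was the most strongly induced of the set in control cells. Its intensity in control cells was 428.3 and 334.1 at 0 h, 2400.0 and 1490.3 at 2 h, 3772.0 and 3024.7 at 6 h, then 1646.2 and 1767.1 at 12 h. With the inhibitor it was 378.8 and 334.0 at 0 h, 775.0 and 670.5 at 2 h, 1407.3 and 1532.2 at 6 h, then 1461.5 and 1204.5 at 12 h. The treated arrays lay below the control arrays at 2 h, 6 h and 12 h with no overlap, and the 0 h groups overlapped in intensity.

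Icam1 rose 6.82-fold at 2 h, 12.3-fold at 6 h and 5.90-fold at 12 h in control cells (log2 2.77, 3.62 and 2.56, SE 0.13, adjusted p in limma from 3.05e-09 to 6.46e-08). With Akti1/2 it rose 3.13-fold, 5.31-fold and 4.71-fold at these times (adjusted p in limma from 8.91e-08 to 4.8e-06). Against control cells it was 2.07-fold lower at 2 h (adjusted p = 0.000215) and 2.20-fold lower at 6 h (adjusted p = 4.23e-05), and differed by -0.25 at 12 h (-0.54 to 0.04, adjusted p = 0.137).

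The interaction of Icam1 was -1.12 at 2 h (-1.53 to -0.72, adjusted p = 0.00569 in limma), -1.22 at 6 h (-1.62 to -0.81, adjusted p = 0.00103) and -0.33 at 12 h (-0.73 to 0.08, adjusted p = 0.204). From 6 h to 12 h it fell by 1.06 in control cells (2.09-fold, adjusted p = 0.000369), whereas with Akti1/2 the change was -0.17 (adjusted p = 0.391). Between 2 h and 6 h it rose by 0.85 in control and by 0.76 in Akti1/2-treated cells (adjusted p = 0.00113 and 0.00149). The interaction of Icam1 at 2 h and 6 h kept its call under all alternatives run and was negative on both chips.

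**Figure D2:**
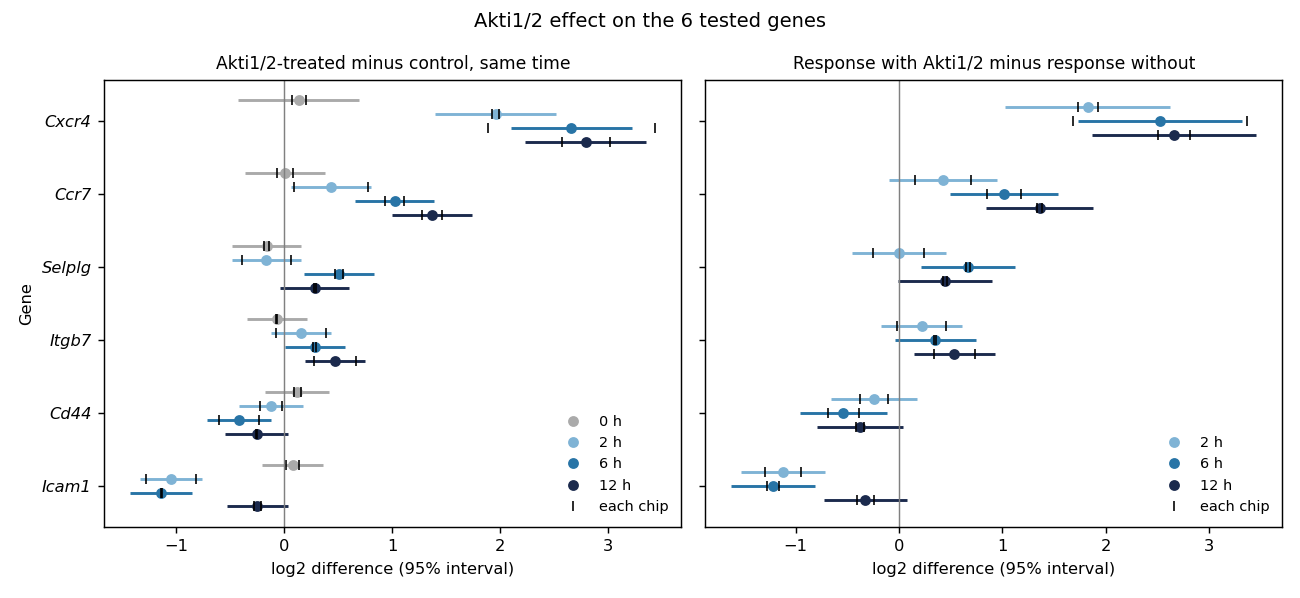
Log2 differences of the 6 tested genes between Akti1/2-treated and control cells at the same time (left) and between their responses since 0 h (right), with points for the fit of 2 arrays per group, bars for 95% intervals and black ticks for the value on each of 2 chips. Cxcr4 lies near 0 at 0 h and between 1.96 and 2.79 afterwards, Ccr7 reaches 1.37 at 12 h, and Icam1 lies at -1.05 and -1.14 at 2 h and 6 h.

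Counted over the 6 tested genes, stimulation of control cells called 3 at 2 h (all higher), 4 at 6 h and 4 at 12 h (2 higher and 2 lower each), against 10.3%, 27.6% and 27.8% of all tested genes. With Akti1/2 it called 3 at 2 h, 3 at 6 h (all higher) and 6 at 12 h (3 higher and 3 lower), against 38.7%, 33.3% and 44.5%. Akti1/2 against control cells called 2 at 2 h, 5 at 6 h and 3 at 12 h, against 28.4%, 37.6% and 49.0%. The interaction called 2 at 2 h, 4 at 6 h and 3 at 12 h, against 8.40%, 19.5% and 32.5%.

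At 12 h all 3 interaction calls were positive (Cxcr4, Ccr7 and Itgb7), the median over the 6 genes was 0.49, and that over all tested genes was -0.02. Between successive times, control cells called 3 genes from 2 h to 6 h (14.6% of all tested genes) and 2 from 6 h to 12 h (13.6%), and Akti1/2-treated cells 2 (30.2%) and 3 (17.7%). The comparisons share their 0 h groups, and their calls are not separate evidence.

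The J5 score, the difference of group means divided by the mean absolute difference of all genes, is the measure of the study's methods, which gives no p-value and for which they state no threshold by time point. A threshold of 20, which the legend of the 2 h gene list names, was applied here at all 3 times. Of 48 scores of the 8 genes against 0 h, 4 were beyond 20, all in control cells. They were Icam1 at 2 h (25.9) and 6 h (41.5), Itgb7 at 12 h (-20.3) and Selplg at 12 h (-21.8). Cxcr4 with Akti1/2 scored 18.8, 18.3 and 15.3 at 2, 6 and 12 h, all below 20. Over all 18138 genes, 0.673%, 0.728% and 0.645% were beyond 20 in control cells at 2, 6 and 12 h, and 0.662%, 0.667% and 0.855% in Akti1/2-treated cells.

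The order of the group means on the log2 scale also differed between the genes. Icam1 was highest in control cells at 6 h and lowest at 0 h, and 3 of 7 steps between neighbouring groups exceeded the distance from a difference to the end of its 95% interval (0.29). Cxcr4 and Ccr7 had 2 such steps each, with Cxcr4 divided between the 3 stimulated Akti1/2-treated groups, which did not differ beyond their spread, control cells at 2 h, and the remaining 4 groups. The order of Ccr7 had Akti1/2 at 12 h and then at 6 h at the top. Among its other 6 groups no neighbouring pair differed beyond the spread, although the rise with Akti1/2 from 0 h to 2 h was called. Itgb7 and Selplg had 1 such step each and Cd44 none, so most neighbours in those orders could not be told apart.

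The genes whose 8 group means followed those of each tested gene most closely are a description without a test, since they were picked by their correlation. Cxcr4 was followed by Cd28, the costimulatory receptor gene (Pearson r = 0.9915), Ndufa2 (0.9906) and LOC100048845 (0.9835). Ccr7 was followed by Asb3 (0.9924), Krtcap2 (0.9908) and Nupr1, a stress-induced gene (0.9896). Icam1 was followed by Zc3h12a, which encodes the RNase Regnase-1 (0.9848), Ltb, the lymphotoxin beta gene (0.9727), and Tmem49 (0.9711).

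Itgb7 was followed by the chemokine gene Ccl17 (0.9785), Lonp2 (0.9779) and AB124611 (0.9772), and Selplg by Cenpn (0.9831), Acss1 (0.9676) and F8a (0.9675). The genes nearest to Cd44 were Ptp4a3 (0.9718), Zmat3 (0.9655) and Denr (0.9637). Among the 6 genes themselves, Itgb7 and Selplg were the closest pair (0.9257), followed by Ccr7 and Cxcr4 (0.7661).

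The 8 lists of related genes are read against the interaction over all tested genes, which called 8.40%, 19.5% and 32.5% at 2, 6 and 12 h with medians of -0.01, -0.01 and -0.02. The medians of the lists are of fitted values, some from genes below background in a group, and are no bounds. Folds given as at least count the dim group at no less than the lowest level above background and leave out the error of the fit.

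Among other chemokine receptors, 4 of 20 measured were tested. Cx3cr1, the fractalkine receptor gene, fell at 12 h by 2.43 in control cells and was higher with Akti1/2, with an interaction of 1.53 at 6 h (adjusted p = 0.00133 in limma) and 2.06 at 12 h (adjusted p = 8.8e-05). Its intensity at 12 h was 207.7 and 245.1 in control and 570.4 and 421.1 in Akti1/2-treated cells, with no overlap. Cxcr6, the receptor of CXCL16, was above background on no array in 5 of the 8 groups, so that no fold size is given. After background correction it was called higher with Akti1/2 at 2 h (adjusted p = 0.0095 in limma) and 6 h (adjusted p = 0.00261). Its intensities overlapped at 2 h, with 151.1 and 158.5 in control and 151.5 and 159.4 in treated cells. They also overlapped at 6 h (150.1 and 149.1 against 144.3 and 189.6), so the calls rest on the background correction. At 12 h Cxcr6 was below background in both conditions. Ccrl2, an atypical chemoattractant receptor gene, had an interaction of -1.05 at 2 h (adjusted p = 0.0206). Its log2 difference from control cells was -0.71 at 2 h and 0.65 at 12 h (adjusted p = 0.00863 and 0.0065 in limma). The median interaction of the 4 was 0.31, 0.80 and 0.53 at 2, 6 and 12 h.

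Of 6 tested genes of sphingosine 1-phosphate signalling (11 measured), S1pr4, a receptor of blood cells, was not above background on the control arrays at 6 h and 12 h and was at least 2.01-fold and at least 1.96-fold higher with Akti1/2 there (adjusted p = 0.000109 and 3.46e-05 in limma). The kinase gene Sphk2 lay close to background (165.8 to 226.1) and had interactions of 1.00, 0.75 and 1.18 at the 3 times, all called. Its intensities overlapped between conditions at 2 h (180.6 and 182.4 in control, 178.6 and 190.4 in treated cells). They also overlapped at 6 h (181.3 and 181.1 against 165.8 and 221.6), and at 12 h were 170.5 and 186.6 against 226.1 and 214.7. The log2 difference at 0 h, -0.39 with Akti1/2 (adjusted p = 0.831 in limma), enters each interaction. At 12 h the lyase gene Sgpl1 had an interaction of 0.92 (adjusted p = 0.000793), and the list had 3 genes called higher and 1 lower, against 32.5% called over all tested genes, with a median of 0.84.

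Integrin subunits other than the members gave 3 tested of 21 measured. Itga7, the alpha subunit of a laminin receptor, was lower with Akti1/2, the log2 difference being -1.56 at 6 h (adjusted p = 0.000838 in limma) and -1.52 at 12 h (adjusted p = 0.0006). It was dim (145.2 to 358.2) and above background on 15 of 16 arrays. Of 16 tested genes of integrin activation, the interaction called 1, 3 and 6 at 2, 6 and 12 h, shares near the 8.40%, 19.5% and 32.5% of all tested genes. Cytip, which binds the integrin regulator cytohesin, was called at all 3 (0.71, 0.93 and 0.64), and Fyb, the adaptor ADAP, and Rasgrp1, a Ras exchange factor, at 12 h (0.92 and 1.02). At 12 h 4 were higher and 2 lower, with a median of 0.00.

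Of 6 tested genes of selectins and their ligands, the sugar transferase gene B4galt1 had interactions of 0.83 at 6 h and 1.12 at 12 h (adjusted p = 0.00901 and 0.000756 in limma). At 12 h St3gal4, a sialyltransferase that builds selectin ligands, and Tpst1, a sulfotransferase that acts on PSGL-1, were at -0.81 and -0.71 (adjusted p = 0.0376 and 0.0192), and the median of the list was -0.15.

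Of 11 tested immunoglobulin superfamily genes, Icam4 fell with Akti1/2, with intensities at 12 h of 375.1 and 407.6 in control and 233.4 and 188.0 in treated cells. Its interaction was -0.78, -0.83 and -1.56 at 2, 6 and 12 h (adjusted p = 0.0299, 0.011 and 0.000115 in limma). Cd84, a SLAM family receptor gene, was at -0.63 and -0.51 and Cd47, an integrin-associated protein gene, at 0.80 and 0.65 at 6 h and 12 h, all called. The median of the list was -0.13, -0.31 and 0.07.

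Of 11 tested partners and sheddases of CD44, the tetraspanin gene Cd81 had interactions of -0.77, -0.86 and -0.80, called at all 3 times, and the median of the list at 12 h was -0.28. Cd74, the invariant chain, which binds MIF together with CD44, was not above background at 0 h and rose at least 10.9-fold at 12 h in control and at least 6.36-fold in Akti1/2-treated cells, and at 6 h, where both conditions were above background, it was 2.49-fold lower with Akti1/2 (adjusted p = 0.000207 in limma). Msn, the linker moesin, had an interaction of 0.88 at 2 h (adjusted p = 0.0234).

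Of 3 tested regulators of homing receptor genes, none was called in the interaction, which with 3 genes is little to set against 8.40%, 19.5% and 32.5% of all tested genes. Foxo1 was higher with Akti1/2, with log2 differences of 0.64 at 2 h, 0.69 at 6 h, then 0.65 at 12 h (adjusted p = 0.00995, 0.0039 and 0.00416 in limma), with interactions of 0.52, 0.58 and 0.53 that did not pass (adjusted p = 0.153, 0.0824 and 0.0833). Klf2 was above background on no array, with intensities of 105.7 to 134.5.

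**Figure D3:**
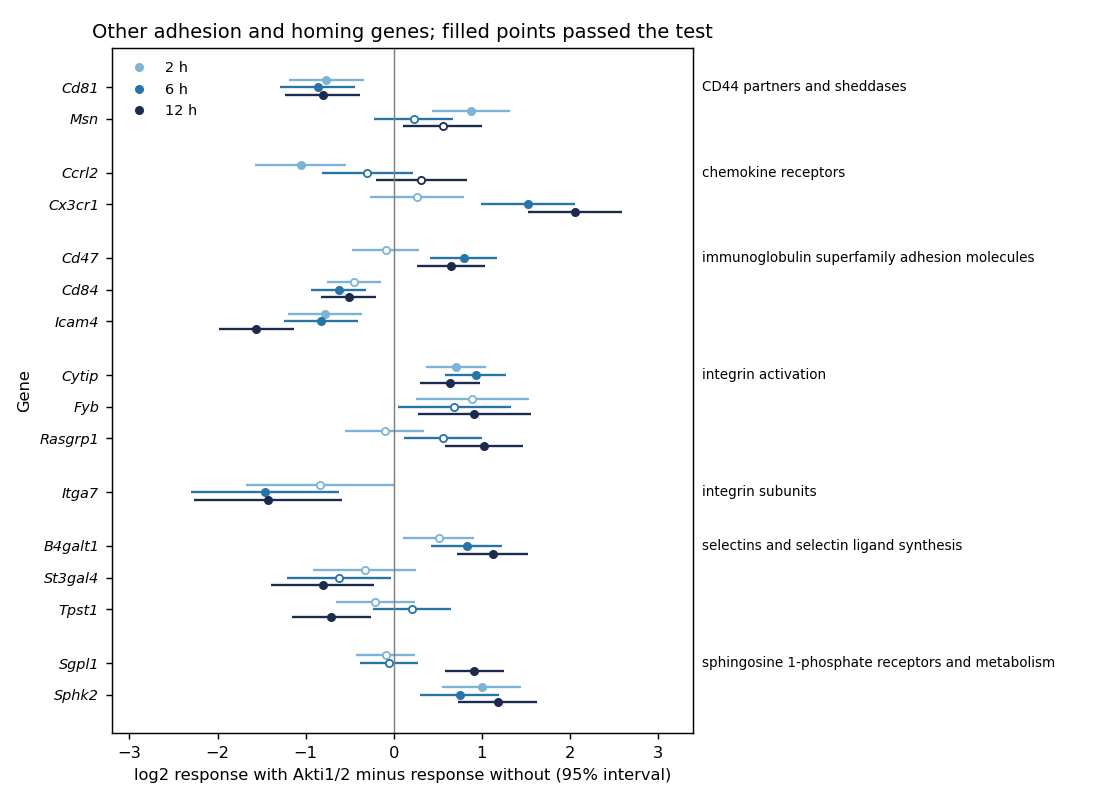
Log2 difference between the responses with and without Akti1/2 (95% interval) for the 16 named genes of 7 lists that were above background on at least 1 array of every group, with filled points where the difference passed the test. Cx3cr1 at 12 h has the highest value (2.06) and Icam4 at 12 h the lowest (-1.56).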

How the data were processed

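Total RNA from D10 cells (RNeasy, RNA integrity number above 8 per the labels) was labelled and hybridised by the authors to Illumina MouseRefSeq8 arrays. The deposited values are non-normalised intensities of 18138 genes and of control probes on 16 arrays, exported per the file headers with GSGX 1.5.4; further steps and the genome build are not given in the sources used here. In the re-analysis, limma 3.58.1 (R 4.3.3) corrected and quantile-normalised the intensities with neqc (offset 16) and the 798 negative controls, took log2, and kept genes with detection p under 0.01 on at least 2 arrays. A fit of 8 group means (8 residual and 4.26 prior degrees of freedom) gave 17 comparisons, adjusted by Benjamini-Hochberg over 7395 genes, called under 0.05. limma replaced the J5 test of the methods, which gives no p-value; J5 was computed on intensities scaled to each array's 95th percentile. Groups came from the titles, and no sample was left out. The script was tested on simulated data.

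The genes named are the 9 listed, from each of 8 related lists up to 3 with the largest called interaction, Klf2, Foxo1, Itga4, Itgb1 and Itgae, and the 3 nearest genes by Pearson r. A further gene that the rule names is not reported here. Members and lists were chosen with earlier results of these data known. Alternatives changed the normalisation, the filter, the groups in the fit and the blocks, or left out single arrays. Replicate numbers did not pair the arrays. The precision is limited by 2 arrays per group. Tables were made with Python 3.11.15 and pandas 2.3.3.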

Additional observations from a re-analysis of the deposited data

Results flagged for a closer look

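The test of the difference between the responses with and without Akti1/2 passed for 9 values of 5 genes, given here as the log2 response with Akti1/2 minus that without. Cxcr4 differed by 1.82 at 2 h, 2.52 at 6 h and 2.66 at 12 h, and Ccr7 by 1.02 at 6 h and 1.36 at 12 h. Icam1 differed by -1.12 at 2 h and -1.22 at 6 h. Selplg differed by 0.67 at 6 h and Itgb7 by 0.54 at 12 h, and each of these lay near the threshold. The causes were not tested.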

How the results depend on the processing

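No call on the 6 tested genes reversed its direction under any alternative run. The count of genes called for Akti1/2 against control cells at 6 h was 5, and was 3 with only genes detected on all 16 arrays (which leaves out Ccr7 and Cd44) and 3 with only the groups compared in the fit. In Akti1/2-treated cells the count from 2 h to 6 h was 1 under each of these settings (2 in the report), and from 6 h to 12 h it was 1 and 0 (3 in the report). The number of J5 scores beyond 20 was 4, and 0 where the mean absolute difference was taken over genes detected on at least 2 arrays. With single arrays left out, the counts ran from 3 to 5 for Akti1/2 against control cells at 6 h, 1 to 2 for the interaction at 2 h, and in Akti1/2-treated cells 1 to 2 from 2 h to 6 h and 0 to 3 from 6 h to 12 h. With only the groups compared in the fit, 8 calls named in the report were lost, those of Cd44 at 2 h in control cells, of Selplg and Cd44 between conditions at 6 h, of Cxcr4 from 2 h to 6 h in control cells, and of Ccr7 (both steps), Selplg and Cd44 between later times with Akti1/2 (adjusted p = 0.0618 to 0.111). The remaining counts stayed within 1.5 times of the reported ones.

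Arrays of 1 replicate number did not deviate together (r from -0.296 to 0.264 over 28 pairs of groups, 7 over 0.1). With the replicate block, 1 call changed, Cd44 from 0 h to 2 h in Akti1/2-treated cells (log2 0.34, adjusted p = 0.0492 in limma). With the chip as a block the interaction of Selplg at 6 h had an adjusted p of 0.0503 and that of Cd44 at 6 h 0.0453. Signals close to the negative controls limit what can be said of Ccr7, Cd44, Itgb2 and S1pr1. The same limit holds for related genes, among them Cxcr6, Sphk2, S1pr4, Itga7, Ccrl2 and Sgpl1.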
